A study of Mus musculus with 8 samples.

Results

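The 10 genes described here encode chemokines, small secreted or membrane-tethered proteins that guide leukocytes: Ccl2, Ccl7 and Ccl11 of the CC class, Cxcl1, Cxcl2, Cxcl12, Cxcl13, Cxcl14 and Cxcl16 of the CXC class, and Cx3cl1. They were taken by symbol from the 22180 genes that had an array row with a single annotated symbol. Each of the 10 had 1 such row, so the rule of keeping the row with the highest mean left nothing to choose. The genes were selected on measured values of these same arrays, among them the knockout minus wild-type values of Ccl2, Ccl7 and Cxcl13 in the ascending aorta. Their levels are therefore a description, and so are their knockout minus wild-type values in the ascending aorta and everything computed from these, p-values and intervals included. The counts of members below support nothing by themselves.

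Expression was measured with Affymetrix arrays in the aorta of newborn C57BL/6 mice at postnatal day 0. The 4 groups were ascending aorta of fibulin-4 knockout pups, ascending aorta of wild-type pups, descending aorta of fibulin-4 knockout pups and descending aorta of wild-type pups. Fibulin-4 is a matrix protein needed to build elastic fibres. The ascending segment ran from the valve to the ductus arteriosus and the descending segment from the vena cava to the diaphragm. Each array held RNA pooled from 8 pups, and each group had 2 arrays that the labels call biological replicates. The allele behind the knockout is not given in the sources used here, and because pups were pooled no value belongs to a single animal.

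Chemokines act on G protein-coupled receptors of leukocytes and vessel cells and are held in place by binding to sulphated sugars of the matrix. They are classed by the spacing of the first conserved cysteines of the protein. In an artery wall, inflammatory chemokines such as Ccl2 are made by stimulated smooth muscle cells, fibroblasts, endothelium and macrophages and draw in monocytes, while homeostatic chemokines such as Cxcl12 and Cxcl13 are made by stromal cells at rest and position cells during development and in lymphoid tissue.

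Values are log2 expression from the robust multi-array average (RMA), so a difference of 1 is a doubling. RMA values of dim genes are compressed, and levels of different genes are not compared, except that low levels are set against all genes of the arrays. The medians over all rows lay between 4.68 and 4.89 on the 8 arrays, and replicate 2 of both wild-type groups had a narrower interquartile range over genes (1.80 ascending, 1.74 descending) than the remaining 6 arrays (2.14 to 2.28). Having 2 arrays a group sets the precision, and a difference between groups had a median SE of 0.30. The smooth muscle genes Myh11 (8.70 to 9.22) and Acta2 (12.1 to 12.4), the endothelial gene Pecam1 (8.09 to 9.0) and the leukocyte gene Ptprc (5.29 to 7.12) were read on all 8 arrays. Expression of the knocked-out gene itself was not analysed here and gives no check of the labels.

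The first question was whether the chemokine genes differ between the ascending and the descending aorta. Cxcl13, which encodes the chemokine that draws B cells through the receptor Cxcr5, was lower in the ascending aorta of wild-type pups. Its log2 level was 6.36 and 6.73 on the wild-type ascending arrays, against 9.11 and 9.55 on the wild-type descending arrays. No array of either segment came near the other segment. The difference, ascending minus descending, was -2.79 (SE 0.28, unadjusted 95% interval -3.42 to -2.15), a 6.90-fold lower level, with limma adjusted p = 0.0422 over 22180 genes. It had the smallest p of all genes in that comparison, in which 2 genes were called at an adjusted p under 0.05, or 0.00902% of those tested. The other gene was Tcf21, a transcription factor of epicardial and fibroblast lineages, which was higher in the wild-type ascending aorta by 3.01 (SE 0.32, limma adjusted p = 0.0422). In bulk tissue, fewer cells that express a gene and less RNA per cell cannot be told apart. The Cxcl13 difference draws on the same wild-type ascending arrays as the knockout minus wild-type value used in the selection. Its p-value, rank and call are therefore a description too. The direction and size of the Cxcl13 difference varied little when single arrays were left out, between -3.01 and -2.56, but the call was lost in 13 of 19 alternative settings, 7 of them among the 8 that leave out an array, and was kept without wild-type ascending replicate 2 (limma adjusted p = 0.0280).

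In the knockout aorta no gene passed this contrast. There, Cxcl13 had 7.97 and 7.80 in knockout ascending aorta, against 8.89 and 8.47 in knockout descending aorta, a difference of -0.80 (SE 0.28, limma adjusted p = 1.00). The 4 groups thus followed each other without overlap, with means of 9.33 in wild-type descending, 8.68 in knockout descending, 7.88 in knockout ascending and 6.55 in wild-type ascending aorta. The knockout minus wild-type difference was 1.34 (SE 0.28, limma adjusted p = 0.261) in the ascending aorta and -0.65 (SE 0.28, limma adjusted p = 0.835) in the descending aorta, neither of them called. These values differ by 1.99 (SE 0.40), which did not pass over all genes (limma adjusted p = 1.00). The ascending value was among those the genes were selected on, so the size of this difference is a description. No gene was called in that comparison by limma, and 733 of 22180 genes (3.30%) had an unadjusted p under 0.05.

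**Figure D1:**
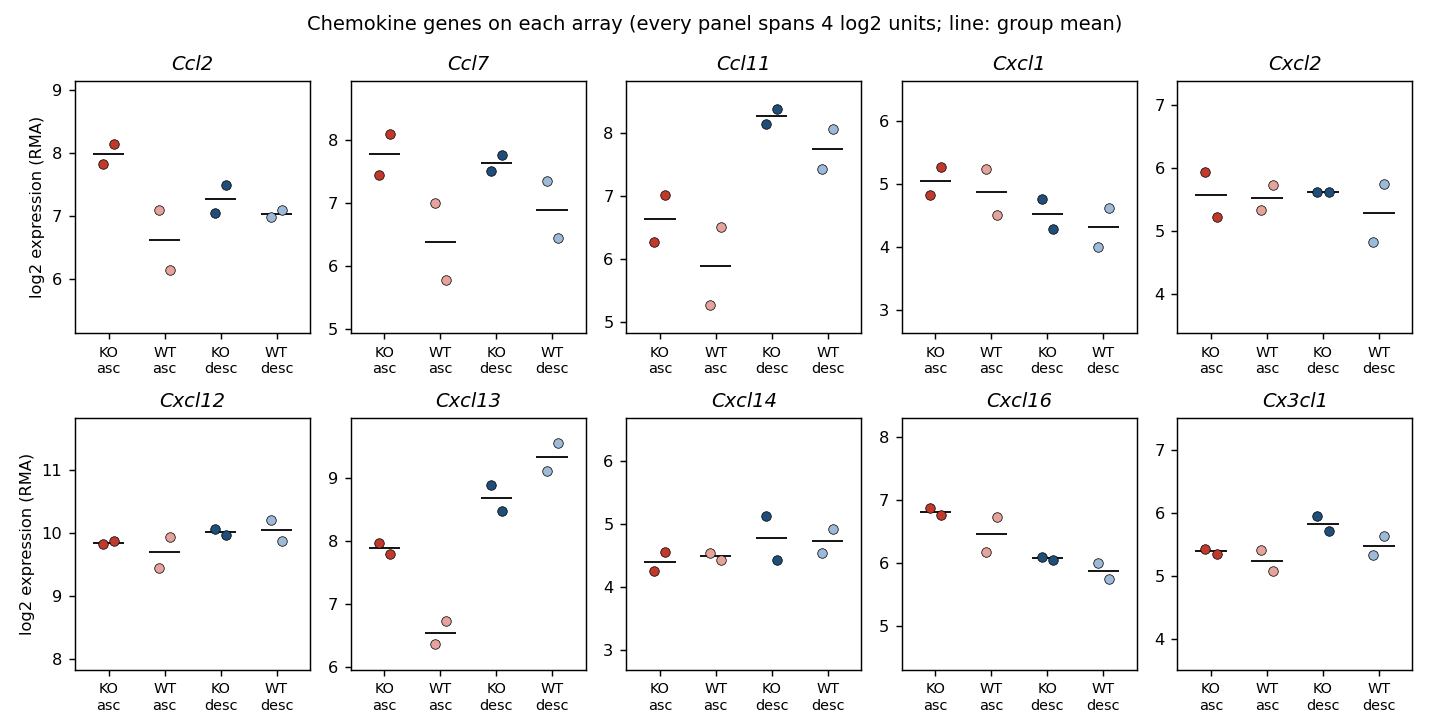
Log2 expression (RMA) of the 10 chemokine genes on each of the 8 arrays; points are arrays of 8 pooled pups, lines are means of the 2 arrays of a group, asc is ascending, desc is descending, and every panel spans 4 log2 units around its own midpoint. Cxcl13 has 4 separate groups, from a mean of 6.55 in wild-type ascending to 9.33 in wild-type descending aorta, while Cxcl12 stays between 9.45 and 10.2.

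The 250 bases upstream of the annotated start of Cxcl13 are shown because this gene carries the called difference. They are from RefSeq (GRCm38.p6, chr5:95956689-95956938, + strand), and capitals mark a TATA box (TATAAA), which lies 46 to 41 bases before the start and is found in 12.4% of 32851 upstream windows of that length.
Cxcl13: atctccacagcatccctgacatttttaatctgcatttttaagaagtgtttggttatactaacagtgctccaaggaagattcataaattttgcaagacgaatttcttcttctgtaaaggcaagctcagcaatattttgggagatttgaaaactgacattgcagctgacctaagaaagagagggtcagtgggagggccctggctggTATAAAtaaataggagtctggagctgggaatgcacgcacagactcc
The window held no match to the NF-kappaB consensus, to the AP-1 motif TGANTCA or to the cyclic AMP element TGACGTCA on either strand, and 42.0% of its bases were G or C. A match, or none, describes the letters of this window and nothing about a factor.

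Cxcr5, the receptor of Cxcl13 on B cells, was chosen for its link to the ligand and not for its values. It had 4.67 and 4.72 in wild-type ascending aorta and 4.38 and 4.98 in wild-type descending aorta, which overlap (difference 0.01, SE 0.28). The 5 measured B cell markers had a mean log2 level of 4.48 and 4.71 on the wild-type ascending arrays, against 4.56 and 5.06 on the wild-type descending arrays, and 2 of 5 lay above 0 in the difference. Cxcr5 and these B cell averages lay below the medians of genes on the same arrays (5.02 to 5.08), where values are compressed. Markers of other tissues stood apart on the same arrays. The 7 brown fat markers averaged 7.32 and 6.48 in wild-type ascending aorta, against 8.90 and 8.19 in wild-type descending aorta, and 7 of 7 lay below 0 (median difference -1.14). The 8 skeletal muscle markers averaged 7.49 and 8.86 in wild-type ascending aorta, against 5.95 and 5.51 in wild-type descending aorta, and 8 of 8 lay above 0 (median 2.34). In the knockout the brown fat mean was 6.26 and 5.97 in ascending and 6.83 and 6.86 in descending aorta. The part of these tissues in the Cxcl13 difference was not tested.

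Over the 8 arrays, the genes whose pattern was nearest to that of Cxcl13 were Rgs2, a regulator of G protein signalling, Qtrt2, a subunit of a transfer RNA modifying enzyme, and Pnpla2, the adipose triglyceride lipase. The measure was the root mean square difference of the 8 log2 values after each gene was centred on its own mean, over 17430 genes, and it was 0.45, 0.46 and 0.50. The SD of Cxcl13 over the arrays was 1.13. All 3 were also lowest in wild-type ascending and highest in wild-type descending aorta.

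Ccl11, or eotaxin, which draws eosinophils through Ccr3, had lower values in the ascending segment in both genotypes. Its level was 6.26 and 7.01 in knockout ascending aorta, against 8.13 and 8.38 in knockout descending aorta. In wild-type it was 5.26 and 6.50 in ascending aorta, against 7.42 and 8.06 in descending aorta. Both ascending arrays lay below both descending arrays in each genotype. The difference was -1.63 in the knockout (SE 0.43, 3.09-fold lower, limma adjusted p = 0.909) and -1.86 in wild-type (SE 0.43, 3.64-fold lower, limma adjusted p = 0.437), and neither passed over all genes. In wild-type the value was -1.24 without wild-type ascending replicate 1, the array with the lowest Ccl11, and -2.48 without replicate 2. Ccr3, singled out as the receptor of Ccl11, had 3.04 and 2.50 in wild-type ascending and 2.96 and 2.43 in wild-type descending aorta. These Ccr3 levels lay below the 25th percentile of genes on each wild-type array (4.01 to 4.23). The eosinophil averages that follow lay below the medians of genes on those arrays (5.02 to 5.08), and values this low are compressed. The 4 measured eosinophil markers averaged 3.96 and 4.54 in wild-type ascending and 3.98 and 4.23 in wild-type descending aorta, and the 7 mast cell markers 5.93 and 5.44 in wild-type ascending aorta, against 6.95 and 6.21 in wild-type descending aorta. All 7 mast cell markers lay below 0 in that difference (median -0.63); their part in the Ccl11 values was not tested. The genes most like Ccl11 were Apod, a lipid-binding lipocalin, Parm1 and Ubr7, with root mean square differences of 0.45, 0.48 and 0.49, where the SD of Ccl11 itself was 1.08.

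Cxcl16, a transmembrane chemokine that binds Cxcr6 and also serves as a scavenger receptor for oxidised lipoprotein, ran the other way. It had 6.87 and 6.78 in knockout ascending aorta, against 6.10 and 6.06 in knockout descending aorta, and 6.19 and 6.74 in wild-type ascending aorta, against 6.00 and 5.75 in wild-type descending aorta. Ascending arrays lay above descending arrays in each genotype. The difference was 0.74 in the knockout (SE 0.27, limma adjusted p = 1.00) and 0.59 in wild-type (SE 0.27, limma adjusted p = 0.803), neither of them called. Leaving out wild-type ascending replicate 2 gave 0.31 for the wild-type value, and leaving out its replicate 1 gave 0.86.

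**Figure D2:**
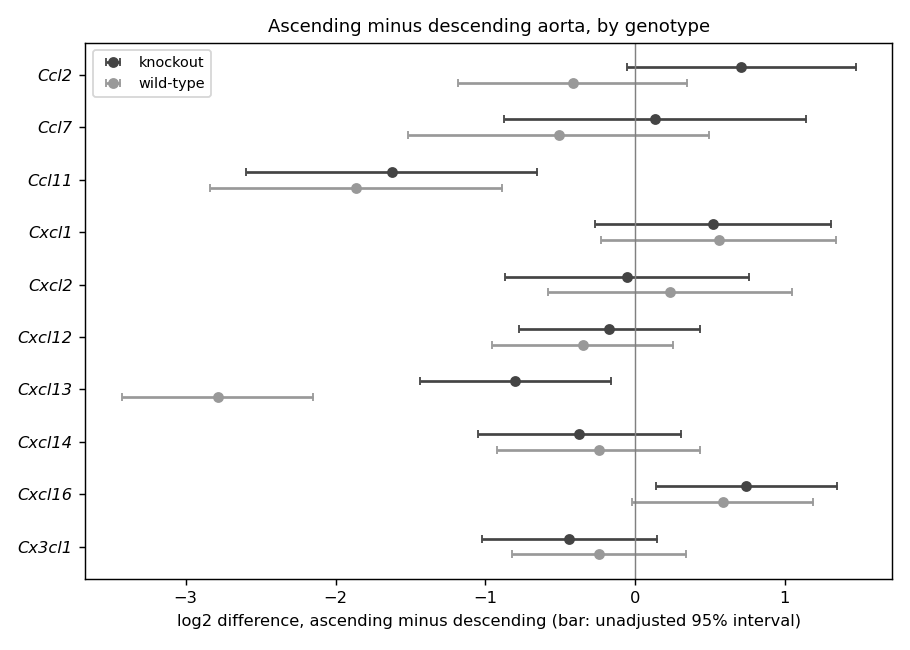
Log2 difference, ascending minus descending aorta, of the 10 chemokine genes in knockout (dark) and wild-type (grey); points are limma estimates from 2 arrays per group and bars are unadjusted 95% intervals. Cxcl13 in wild-type, at -2.79, lies apart from 0, the Ccl11 intervals lie below 0 in both genotypes, and the Cxcl16 interval lies above 0 in the knockout but includes 0 in wild-type (-0.019 to 1.19).

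For Ccl2, Ccl7, Cxcl1, Cxcl2, Cxcl12, Cxcl14 and Cx3cl1 the difference lay between -0.44 and 0.71 in the knockout and between -0.51 and 0.56 in wild-type, with every unadjusted 95% interval including 0. Of all 10 members, 3 had an unadjusted p under 0.05 in the knockout (Ccl11, Cxcl13 and Cxcl16), where 4.04% of all genes did, and 2 in wild-type (Ccl11 and Cxcl13), where 6.19% did. Both ascending arrays lay below both descending arrays for 4 members in the knockout (Ccl11, Cxcl12, Cxcl13 and Cx3cl1), against 20.8% of all genes, and for Ccl11 and Cxcl13 in wild-type, against 14.1%. They lay above for 3 members in the knockout (Ccl2, Cxcl1 and Cxcl16), against 18.3%, and for Cxcl16 in wild-type, against 15.9%. No gene of any kind was called between the segments of the knockout (0% of 22180, limma), and 895 had an unadjusted p under 0.05. The 2 segment comparisons share no array with each other but share their arrays with the knockout effects below.

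The second question was what the knockout did to these genes in each segment. In the ascending aorta 9 of 10 members lay above 0, with a median log2 change of 0.27, against -0.01 over all genes, of which 49.3% lay above 0. None of the 10 passed, as was so for every gene tested there: 0% were called by limma, and the smallest adjusted p was 0.0780. At an unadjusted p under 0.05 there were 3 members, Ccl2, Ccl7 and Cxcl13, where 8.90% of all genes stood. Both knockout arrays lay above both wild-type arrays for 4 members, those 3 and Cxcl16, and for 21.5% of all genes.

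Ccl2, also called MCP-1, recruits monocytes through the receptor Ccr2. It had 7.82 and 8.13 in knockout ascending aorta, against 7.09 and 6.14 in wild-type ascending aorta, a log2 change of 1.36 (SE 0.34, 2.57-fold, limma adjusted p = 0.335). The knockout arrays were close together and the wild-type arrays almost 1 log2 unit apart. Ccl7, or MCP-3, which shares Ccr2, had 7.45 and 8.10 in knockout and 7.0 and 5.77 in wild-type ascending aorta, a change of 1.39 (SE 0.45, 2.61-fold, limma adjusted p = 0.453). The low wild-type value of both genes came from wild-type ascending replicate 2, an array with a narrow spread of values; without it the values were 0.88 for Ccl2 and 0.77 for Ccl7, and without wild-type ascending replicate 1 they were 1.83 and 2.00. Ccl11 stood at 0.75 (SE 0.43), with overlapping arrays, and ran from 0.13 to 1.37 when either wild-type ascending array was left out.

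In the descending aorta, Ccl2 had 7.05 and 7.48 in knockout descending aorta and 6.97 and 7.09 in wild-type descending aorta, which overlap (change 0.23, SE 0.34). Ccl7 had 7.51 and 7.76 in knockout descending aorta, against 7.35 and 6.44 in wild-type descending aorta (0.74, SE 0.45), and Ccl11 stood at 0.52 (SE 0.43). Without single arrays these descending values ran from 0.29 to 1.20 for Ccl7, from 0.20 to 0.84 for Ccl11 and from 0.018 to 0.45 for Ccl2, the ends for Ccl7 and Ccl11 coming from leaving out either wild-type descending array. The knockout minus wild-type value of Ccl2 exceeded that of the descending aorta by 1.12 in the ascending aorta (SE 0.48), which did not pass (limma adjusted p = 1.00) and also draws on a value used in the selection. Leaving out wild-type ascending replicate 2 gave 0.65, and leaving out its replicate 1 gave 1.60. Averaged over both segments the change was 0.80 (SE 0.24, limma adjusted p = 0.310) for Ccl2 and 1.06 (SE 0.32, limma adjusted p = 0.302) for Ccl7, where 0.0721% of all genes were called and 11.4% had an unadjusted p under 0.05.

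Ccl2, Ccl7 and Ccl11 are neighbours on chromosome 11, followed by Ccl12, Ccl8 and Ccl1 in the RefSeq annotation. Ccl8, another ligand of the MCP group, had 5.55 and 6.46 in knockout ascending aorta, against 5.25 and 4.36 in wild-type ascending aorta (1.20, SE 0.40, limma adjusted p = 0.463). It had 5.92 and 5.33 in knockout descending aorta, against 4.73 and 4.57 in wild-type descending aorta (0.98, SE 0.40, limma adjusted p = 0.824). Its arrays did not overlap in either segment. Ccl12 (0.49, SE 0.62, and 0.04, SE 0.62) and Ccl1 (-0.41, SE 0.28, and -0.13, SE 0.28), named for their place in the row of genes, had the ascending and descending values given. The ascending values of this stretch ran from -0.41 to 1.39, with SEs up to 0.62. No test compared these genes with each other, and none of them was called. By shape over the 8 arrays, Ccl2 was 0.37 from Ccl7. The genes nearest to Ccl2 were Baz1a, a chromatin remodelling subunit (0.12), Alg3 (0.19) and Noc2l (0.20). Those nearest to Ccl7 were Clec4n, which encodes the myeloid lectin dectin-2 (0.19), Lrrc59 (0.23) and Rybp (0.24).

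**Figure D3:**
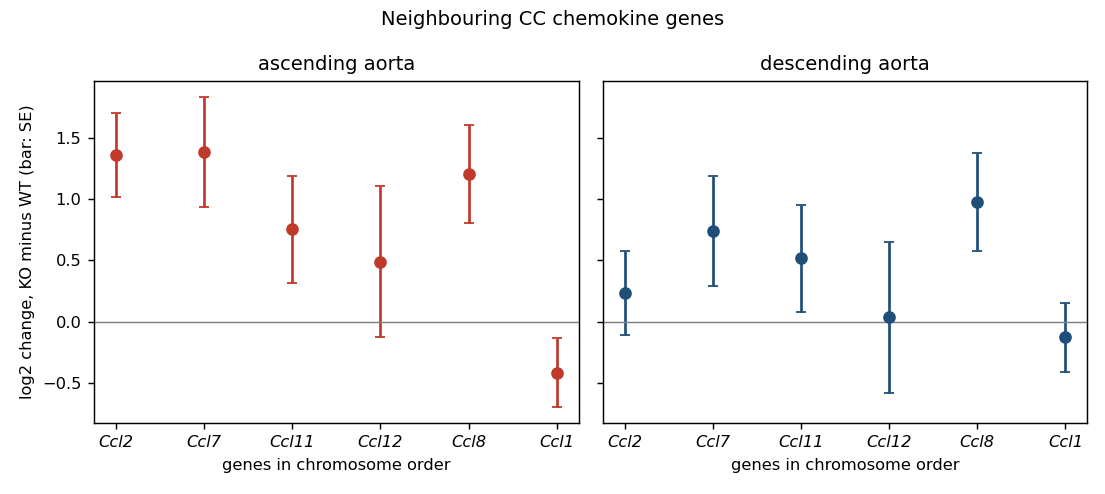
Log2 change, knockout minus wild-type, of 6 CC chemokine genes in their order on chromosome 11, in ascending (left) and descending aorta (right); points are limma estimates from 2 arrays per group and bars are SE. Ccl2, Ccl7 and Ccl8 stand at 1.36, 1.39 and 1.20 in the ascending aorta, and Ccl1 at -0.41.

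The 18 markers of macrophages and monocytes had a mean log2 level of 7.47 and 7.24 in knockout ascending aorta, against 6.73 and 6.23 in wild-type ascending aorta. In the descending aorta it was 7.48 and 7.10 in the knockout, against 6.95 and 6.67 in wild-type. The knockout arrays lay above the wild-type arrays in each segment. In the ascending aorta 18 of 18 markers lay above 0 (median 0.82), 0 were called by limma, and 11 had an unadjusted p under 0.05, where 8.90% of all genes did, among them Laptm5 (1.68, SE 0.30) and Adgre1 (1.14, SE 0.25). Of the same markers, 17 of 18 lay above 0 in the descending aorta (median 0.45). The 9 neutrophil markers averaged 6.57 and 6.30 in knockout ascending aorta, against 5.79 and 5.31 in wild-type ascending aorta, and the 14 endothelial markers 6.33 and 6.25 in knockout ascending aorta, against 6.80 and 6.64 in wild-type ascending aorta. In the ascending aorta 10 of 14 endothelial markers lay below 0 and 4 above, among the latter Flt1 (1.24, SE 0.28). Flt1 stood at 1.11 (SE 0.28) in the descending aorta. The neutrophil and endothelial averages both overlapped between genotypes in the descending aorta. Neutrophil markers averaged 5.53 and 6.04 in knockout descending aorta, against 5.59 and 5.82 in wild-type descending aorta (median change 0.06), and endothelial markers 7.18 and 6.93 in knockout descending aorta, against 7.25 and 6.81 in wild-type descending aorta (median -0.08). The neutrophil gene Ly6g stood at -0.49 (SE 0.36) in the ascending and -2.31 (SE 0.36, limma adjusted p = 0.245) in the descending aorta, against the direction of most of its list. Skeletal muscle markers had the lowest median of these lists in the ascending aorta, at -1.96 with 8 of 8 below 0 and 6 at an unadjusted p under 0.05. They averaged 6.81 and 5.77 in knockout ascending aorta, against 7.49 and 8.86 in wild-type ascending aorta, and 6.05 and 6.19 in knockout descending aorta, against 5.95 and 5.51 in wild-type descending aorta. Brown fat markers lay below 0 in 7 of 7 in both segments, with medians of -0.70 and -1.57. The part of these markers in the Ccl2, Ccl7 and Cxcl13 values was not tested.

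**Figure D4:**
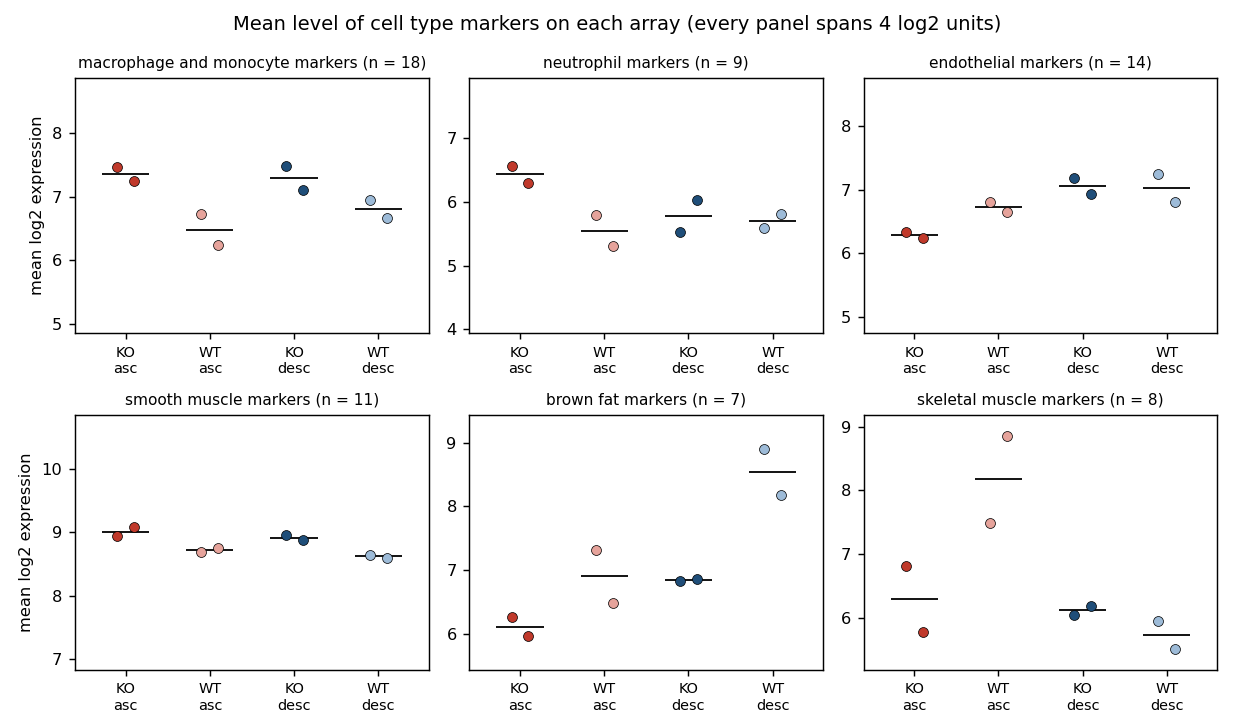
Mean log2 expression of 6 lists of cell type markers on each of the 8 arrays; points are arrays, lines are means of the 2 arrays of a group, n is the number of genes in the list, and every panel spans 4 log2 units. Macrophage and monocyte markers are higher in the knockout arrays of each segment, and brown fat markers are highest in wild-type descending aorta, at 8.90 and 8.19.

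The neutrophil-attracting pair Cxcl1 and Cxcl2, both ligands of Cxcr2, are next to each other on chromosome 5. Their upstream sequences are shown because they share an 11-base stretch, in capitals, that matches the NF-kappaB consensus on both strands in overlapping frames; the consensus is found in 7.25% of the 32851 windows, and the exact stretch, on the strand of the gene, in 12 windows. They are from RefSeq (GRCm38.p6), at chr5:90890995-90891244 for Cxcl1 and chr5:90903649-90903898 for Cxcl2, both on the + strand.
Cxcl1: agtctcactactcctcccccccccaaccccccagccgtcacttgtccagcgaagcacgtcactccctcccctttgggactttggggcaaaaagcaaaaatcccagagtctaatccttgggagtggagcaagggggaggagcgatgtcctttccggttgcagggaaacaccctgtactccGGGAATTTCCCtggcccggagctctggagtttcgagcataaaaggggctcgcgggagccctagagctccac
Cxcl2: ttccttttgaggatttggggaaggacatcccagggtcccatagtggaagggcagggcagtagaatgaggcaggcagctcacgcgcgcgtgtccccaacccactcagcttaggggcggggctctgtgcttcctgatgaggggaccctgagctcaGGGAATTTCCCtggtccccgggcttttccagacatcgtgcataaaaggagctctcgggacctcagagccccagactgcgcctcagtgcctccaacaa
The groups overlapped for both genes in both segments. Cxcl1 had 4.83 and 5.27 in knockout ascending aorta and 5.24 and 4.50 in wild-type ascending aorta, a change of 0.18 (SE 0.35, unadjusted 95% interval -0.61 to 0.96). In the descending aorta its change was 0.21 (SE 0.35). Cxcl2 had 5.92 and 5.21 in knockout and 5.32 and 5.72 in wild-type ascending aorta, a change of 0.05 (SE 0.36, interval -0.77 to 0.86), and stood at 0.33 (SE 0.36) in the descending aorta. Cxcr2, singled out as their receptor, had 5.98 and 6.60 in knockout ascending aorta, against 5.80 and 5.64 in wild-type ascending aorta (0.57, SE 0.28, limma adjusted p = 0.590). Its change in the descending aorta was -0.004 (SE 0.28). For Cxcl1 the nearest genes by shape were Abca16, Ahi1 and Aunip (0.15, 0.16 and 0.17), and for Cxcl2 they were Spaca1, Oog2 and Magea2 (0.09, 0.12 and 0.13), where the members' own SDs were 0.44 and 0.36. The genes nearest to Cxcl2 were dim, with group means from 3.39 to 4.67, below the array medians of genes (4.98 to 5.08). Abca16, the gene nearest to Cxcl1, was dim as well, with group means from 2.41 to 3.04. The mean of Cxcl1 stood at the 40.7th percentile of genes and that of Cxcl2 at the 61.5th.

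Cxcl12, or SDF-1, the ligand of Cxcr4 that guides progenitor cells and the growth of coronary and other arteries, varied least. It lay between 9.45 and 10.2 on all arrays, with an SD of 0.22 over the 8 arrays, against a median SD of 0.32 over all genes. The knockout change was 0.16 (SE 0.27, unadjusted 95% interval -0.45 to 0.76) in the ascending and -0.02 (SE 0.27, interval -0.62 to 0.58) in the descending aorta. Its scavenging receptor Ackr3 had 6.66 and 6.42 in knockout ascending aorta, against 7.29 and 7.18 in wild-type ascending aorta, with both knockout arrays below both wild-type arrays (-0.70, SE 0.25, limma adjusted p = 0.483). The ascending minus descending value of Ackr3 in wild-type was 0.76 (SE 0.25, limma adjusted p = 0.703). Cxcr4, the signalling receptor, stood at 0.35 (SE 0.24) in the ascending and 0.44 (SE 0.24) in the descending aorta. None of these passed.

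Cxcl14, a chemokine of epithelium and fibroblasts, lay between 4.25 and 5.12 on all arrays. It had knockout changes of -0.08 (SE 0.30) and 0.05 (SE 0.30) in ascending and descending aorta. The mean of Cxcl14 stood at percentile 38.2 of genes, and values this low are compressed. The tethered chemokines are released from the cell surface by the proteases Adam10 and Adam17. Cx3cl1, or fractalkine, which holds Cx3cr1-bearing monocytes to endothelium, had 5.44 and 5.36 in knockout and 5.42 and 5.08 in wild-type ascending aorta (0.15, SE 0.26). In the descending aorta it had 5.96 and 5.72, against 5.33 and 5.64 in wild-type, without overlap (0.35, SE 0.26, unadjusted 95% interval -0.23 to 0.93). Cxcl16 stood at 0.36 (SE 0.27) in the ascending and 0.20 (SE 0.27) in the descending aorta, its arrays again not overlapping in either segment. The ascending value ran from 0.084 to 0.64 when either wild-type ascending array was left out, and the descending value from 0.081 to 0.33 when either wild-type descending array was. Its nearest genes by shape were Dctd, Parvg and Mtus2 (0.15, 0.18 and 0.18). All 6 proteases of the list that cut chemokines lay above 0 in both segments, with medians of 0.53 and 0.47, and none was called; Mmp2 stood at 0.80 (SE 0.27) and Mmp9 at 0.58 (SE 0.23) in the ascending aorta.

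Over the descending aorta as a whole, 8 of 10 members lay above 0, with a median of 0.22 against 0.03 over all genes, of which 53.7% lay above 0. None of the 10 was among the genes called by limma there (1 of 22180, or 0.00451%), and Cxcl13 alone had an unadjusted p under 0.05, where 5.95% of all genes did. Both knockout arrays lay above both wild-type arrays for 4 members (Ccl7, Ccl11, Cxcl16 and Cx3cl1) and for 21.6% of all genes. They lay below for 1 member, Cxcl13, and for 15.8% of all genes.

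**Figure D5:**
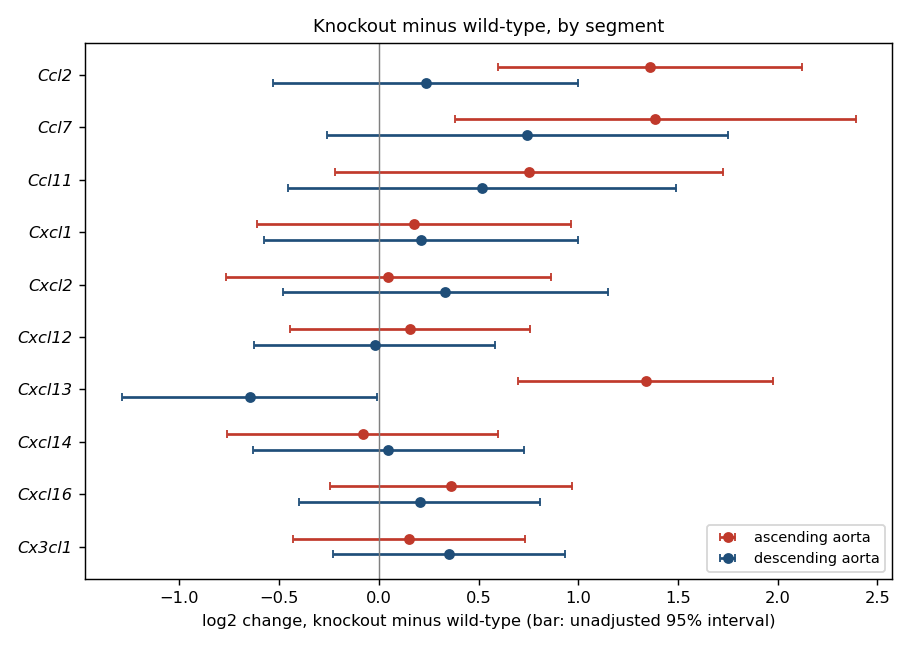
Log2 change, knockout minus wild-type, of the 10 chemokine genes in ascending (red) and descending aorta (blue); points are limma estimates from 2 arrays per group and bars are unadjusted 95% intervals. Ccl2, Ccl7 and Cxcl13 have intervals above 0 in the ascending aorta, and Cxcl13 stands at -0.65 in the descending aorta.

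The rest of the chemokine system was set beside these genes. Of 26 other measured ligands, 16 lay above 0 in the knockout ascending aorta with a median change of 0.12, and 13 in the descending aorta with a median of 0.01; none was called. Ccl6, a macrophage chemokine of rodents, had 7.40 and 6.91 in knockout ascending aorta, against 6.08 and 5.79 in wild-type ascending aorta (1.22, SE 0.27, limma adjusted p = 0.278). It had 6.80 and 6.93 in knockout descending aorta, against 6.13 and 6.26 in wild-type descending aorta (0.67, SE 0.27). Its arrays did not overlap in either segment.

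Of 17 measured receptors, 6 lay above 0 in the ascending and 5 in the descending aorta (medians -0.06 and -0.15), and none was called. Ccr1, a receptor of inflammatory CC chemokines on myeloid cells, stood at 1.12 (SE 0.28, limma adjusted p = 0.331) in the ascending and -0.24 (SE 0.28) in the descending aorta. Ccr2, singled out as the receptor of Ccl2 and Ccl7, had 5.08 and 5.41 in knockout ascending aorta, against 4.56 and 4.41 in wild-type ascending aorta (0.75, SE 0.30). Its knockout minus wild-type value in the descending aorta ran the other way, at -0.39 (SE 0.30). Cxcr6, the receptor of Cxcl16, had 3.87 and 3.82 in knockout ascending aorta, against 4.71 and 4.44 in wild-type ascending aorta. In the descending aorta it had 3.59 and 3.88 in the knockout, against 4.61 and 4.71 in wild-type. Its values of -0.72 (SE 0.25, limma adjusted p = 0.477) and -0.93 (SE 0.25, limma adjusted p = 0.674) ran opposite to those of its ligand, and no test set the pair against each other. Cxcr6 was dim: its knockout levels lay below the 25th percentile of genes on each knockout array (3.97 to 4.01). Its wild-type levels lay below the medians of genes on the wild-type arrays (5.02 to 5.08). The 5 atypical receptors had medians of -0.23 and -0.05.

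The NF-kappaB pathway is known to induce Ccl2, Cxcl1 and Cxcl2. The list of this pathway and its targets had 19 of 22 measured members above 0 in the ascending aorta (median 0.38). In the descending aorta 17 of 22 lay above 0 (median 0.22), and 0 were called in either segment. Ptgs2, the inducible cyclooxygenase, had 6.81 and 7.82 in knockout ascending aorta, against 4.73 and 4.99 in wild-type ascending aorta (2.45, SE 0.34, limma adjusted p = 0.103), and Rela, a subunit of NF-kappaB, stood at 0.90 (SE 0.28). Ptgs2 stood at 0.73 (SE 0.34) in the descending aorta.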

How the data were processed

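Per the labels' protocols, 5 ng of RNA from pooled aortic segments was amplified before hybridisation. The values are log2 levels of probe sets that the authors deposited. RMA and Expression Console are named in the submitters' processing notes, without versions. A genome build for the arrays is not given in the sources used here, and no array coordinates are printed.

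Of 41345 rows, 23521 had 1 gene symbol in the platform annotation, 1814 had several and 16010 were not named there. The row with the highest mean was kept per gene, which left 22180 genes. The fit (limma 3.58.1, R 4.3.3) gave each group 1 mean over all 8 arrays (4 residual and 5.52 prior degrees of freedom) and no filter. Called means a Benjamini-Hochberg adjusted p below 0.05 across the 22180 genes of that comparison. Intervals are unadjusted. Groups share array numbers, with no statement in the labels of a pairing. The deviations of same-numbered arrays correlated across genes between -0.08 and 0.29, not always above 0.1, so no block was used in the reported fit. The 0.29 was between wild-type ascending and wild-type descending aorta. Wild-type replicate 2 arrays stood at -50.3 (ascending) and -52.8 (descending) on the first principal component (29.4% of the variance). The other arrays lay between 9.81 and 26.5. With a block the wild-type Cxcl13 call was lost (limma adjusted p = 0.0667).

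The members, the 20 gene lists (198 of 207 entries measured), the tests and the alternatives were chosen with earlier results of these data known. The text names all members. It also names up to 2 genes per list with the smallest p in the averaged and in the ascending knockout effect, the 3 genes nearest in shape to a member with an SD at or above the median, and 4 tissue markers. The 6 members with a promoter in the RefSeq table of GRCm38.p6 were searched for motifs. Alternatives changed the normalization, the weighting of arrays, the rows and genes entered, the choice of probe set, limma's options, the threshold and the arrays left out. Figures were drawn with matplotlib 3.10.9.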

Additional observations from a re-analysis of the deposited data

Results flagged for a closer look

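Cxcl13 is listed because the genotypes separated in opposite directions in the 2 segments: both knockout arrays lay above both wild-type arrays in the ascending aorta and below both in the descending aorta. The difference between these effects was 1.99 on the log2 scale and did not pass over all genes (limma adjusted p = 1.00). The ascending knockout minus wild-type value of Cxcl13 was among the values the genes were selected on, so the size of this difference is a description and supports nothing. The value ranged from 1.77 to 2.21 when single arrays were left out. Of all genes, 21.5% separated upward in the ascending aorta and 15.8% downward in the descending aorta. The share that did both was not counted.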

How the results depend on the processing

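Over 45 member results and 19 alternatives, 29 results kept their sign throughout. No member other than Cxcl13 was called under any alternative. The lower Cxcl13 level of wild-type ascending aorta kept its call with each array centred on its median, without the dimmest 25% of genes, with probe sets averaged per gene, with limma's trend and robust options and at an adjusted p under 0.1. It lost it, at -2.79, with array weights (adjusted p 0.115), every row of the table (0.326) and only the groups compared (0.425), at -2.72 after quantile normalization (0.110), and at -2.75 without both wild-type replicate 2 arrays (0.0612). With the replicate block it was also lost, at -2.79 (0.0667), and the count of called genes was 1 in that comparison and 0 in the descending knockout effect; no other member call changed with the block. Without single arrays it ran from -3.01 to -2.56, and the cause of the lost calls was not tested.

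The wild-type segment difference kept its sign for Cxcl1 and Cxcl12. It ran from 0.19 to 1.23 for Cxcl1 and from -0.76 to -0.11 for Cxcl12 over the alternatives. Signs changed for differences that lay between -0.51 and 0.33 in the reported fit. After quantile normalization the ascending knockout change was -0.031 for Cxcl12, 0.028 for Cxcl14 and -0.041 for Cxcl2. Without both wild-type replicate 2 arrays it was -0.017 for Cx3cl1 and -0.19 for Cxcl1, and the wild-type segment difference was 0.12 for Ccl2, 0.084 for Cx3cl1 and 0.0029 for Cxcl14. Leaving out single arrays, the ascending knockout change ran from -0.017 to 0.32 for Cx3cl1, -0.086 to 0.40 for Cxcl12, -0.24 to 0.076 for Cxcl14, -0.19 to 0.54 for Cxcl1 and -0.31 to 0.40 for Cxcl2. The descending one ran from -0.19 to 0.15 for Cxcl12, -0.30 to 0.40 for Cxcl14, -0.095 to 0.52 for Cxcl1 and -0.12 to 0.79 for Cxcl2. The segment difference ran from -0.89 to 0.060 for Ccl2, -1.12 to 0.10 for Ccl7 and -0.22 to 0.69 for Cxcl2 in wild-type, and from -0.19 to 0.46 for Ccl7 and -0.41 to 0.30 for Cxcl2 in the knockout.

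Counts of called genes moved more. For the ascending knockout effect (0) there were 1 at an adjusted p under 0.1 and without dim genes, 4 with trend and robust, 11 without both replicate 2 arrays, and 0 to 14 without single arrays. For the descending effect (1) there were 2 at 0.1, with array weights and without dim genes, 0 when centred, with every row, with only the groups compared and after quantile normalization, 4 with trend and robust, 7 without both replicate 2 arrays, and 0 to 2 without single arrays. For the average (16) there were 50 at 0.1, 1 with every row, 2 after quantile normalization, 25 without both replicate 2 arrays, 35 without dim genes, and 0 to 50 without single arrays. For the segment difference in the knockout (0) there were 2 at 0.1, with trend and robust and without dim genes, and 18 with array weights. In wild-type (2) there were 0 with array weights, every row and only the groups compared, 1 after quantile normalization, 9 without both replicate 2 arrays, and 0 to 23 without single arrays. For the difference between segments (0) there was 1 without both replicate 2 arrays.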
